A study of Homo sapiens with 9 samples.

Results

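The 10 genes described here code for FGF receptors, a co-receptor and FGF ligands: FGFR1, FGFR2, FGFR3, FGFR4, FGFRL1, KLB, FGF2, FGF9, FGF18 and FGF19. They were taken by name, and they were put together with the knowledge that FGFR2 lay among the largest falls of the low-glucose-tolerant cells. Of the 36018 genes in the count tables, 9 were members, and FGF19 was not analysed here. Of these 9, 7 had enough reads to enter the statistical fit, while KLB and FGF9 did not. RNA was sequenced from HCT-15 cells, a human colorectal adenocarcinoma line labelled WT, in 3 groups of 3 libraries. One line (CoCl2-tolerant) had been selected by raising exposure to cobalt chloride stepwise until the cells tolerated it, and another (low-glucose-tolerant) by the same scheme with glucose shortage. The control cells were the untreated parent line, and all of the cells grew in RPMI1640 medium with fetal bovine serum. The labels do not say whether replicates were separate cultures, or whether a tolerant line was derived more than once, so p-values here measure a spread between libraries that may be technical. No dose, glucose concentration or selection time was given in the sources used here.

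FGFs are secreted proteins that bind heparan sulfate on the cell surface and bring FGF receptors together in pairs. The paired receptors are tyrosine kinases that phosphorylate the docking protein FRS2, which recruits GRB2 and SOS1 and so feeds the RAS and ERK cascade. That cascade switches on its own inhibitors, among them the Sprouty proteins and the phosphatase DUSP6. In the intestine FGF19, a hormone made by the ileum, acts on liver cells through FGFR4 and its co-receptor KLB and holds back bile acid synthesis. FGFR2 is the receptor that epithelia typically use to answer FGFs from the surrounding mesenchyme.

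Library depth ran between 25178615 and 32674687 assigned reads, so 3 reads corresponded to 0.0918 to 0.119 CPM, the read count scaled to a common library size. All levels below are CPM after correction for library composition, as mean ± SD over 3 libraries, and all p-values come from edgeR's quasi-likelihood test adjusted over all 17902 genes tested, with 0.05 as the threshold. Mitochondrially encoded genes held 4.64% to 6.67% of reads in CoCl2-tolerant libraries, 4.74% to 5.196% in low-glucose-tolerant libraries and 8.08% to 9.80% in control libraries. Of 15 intestinal epithelial markers 14 had counts, and 9 of these were under 1 CPM in CoCl2-tolerant cells, 9 in low-glucose-tolerant cells and 8 in control cells. CDX2, the intestinal master regulator, had 1 read in the low-glucose-tolerant libraries and none in the others, and VIL1, MUC2, CDH17 and KRT20 stayed under 0.22 CPM in every library. The summed epithelial level, mostly keratins, was 1382 to 1678 CPM in CoCl2-tolerant, 2503 to 3411 CPM in low-glucose-tolerant and 1368 to 1404 CPM in control libraries. In CoCl2-tolerant cells 4 of the 6 tested epithelial markers fell and 1 rose, where 18.2% of all tested genes fell and 17.9% rose. In low-glucose-tolerant cells 2 fell and 3 rose, where 34.6% fell and 34.6% rose. CDH1 averaged 1.41, 8.14 and 17.8 CPM in that order of groups, and EPCAM 21.8, 55.7 and 54.7 CPM. KRT19 averaged 911.0, 943.2 and 549.9 CPM. Fibroblast markers summed to 643.8 to 750.1 CPM, 156.0 to 196.0 CPM and 2491 to 2532 CPM in the same order of groups. COL1A1 and THY1 carried nearly all of that sum, while the leukocyte sum stayed at 2.953 CPM or less and the endothelial sum at 2.263 CPM or less. GPA33, another gene of the intestinal list, averaged 0.547 CPM in CoCl2-tolerant, 0.103 CPM in low-glucose-tolerant and 1.14 CPM in control cells. For VIL1, 44.0% of exon bases lie opposite another gene, which can affect its count. The intestinal label is therefore not matched by most of the listed intestinal identity genes in any group. Changes below may come from fewer cells that express a gene or from less RNA per cell, which cannot be told apart in bulk RNA.

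The promoter windows of the 4 members that fell in the CoCl2-tolerant line are shown first, because these genes carry the tested result. Each window holds the 250 bases before the first start in RefSeq (GRCh38.p14), read 5′ to 3′ on the gene's strand. FGFR2 lies on chr10:121598445-121598694 (minus strand), FGFR3 on chr4:1793043-1793292, FGFR4 on chr5:177086665-177086914 and FGF18 on chr5:171419397-171419646 (plus strand). Capitals mark matches, on either strand, to GCGNGGGCG, the motif of the zinc finger factor EGR1.
FGFR2: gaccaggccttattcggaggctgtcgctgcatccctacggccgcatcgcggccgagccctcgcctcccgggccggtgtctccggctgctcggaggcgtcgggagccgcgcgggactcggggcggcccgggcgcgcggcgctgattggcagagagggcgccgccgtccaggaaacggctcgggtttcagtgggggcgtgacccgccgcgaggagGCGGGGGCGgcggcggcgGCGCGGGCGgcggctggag
FGFR3: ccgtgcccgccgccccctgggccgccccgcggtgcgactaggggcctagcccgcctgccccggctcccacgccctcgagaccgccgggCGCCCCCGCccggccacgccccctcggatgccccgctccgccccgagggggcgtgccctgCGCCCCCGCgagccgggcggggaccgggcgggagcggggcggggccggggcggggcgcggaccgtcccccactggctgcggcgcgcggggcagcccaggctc
FGFR4: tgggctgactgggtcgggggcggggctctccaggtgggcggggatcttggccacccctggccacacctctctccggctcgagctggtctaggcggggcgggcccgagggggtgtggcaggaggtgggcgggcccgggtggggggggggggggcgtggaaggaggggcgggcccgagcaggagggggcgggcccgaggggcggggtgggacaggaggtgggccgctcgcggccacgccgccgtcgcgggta
FGF18: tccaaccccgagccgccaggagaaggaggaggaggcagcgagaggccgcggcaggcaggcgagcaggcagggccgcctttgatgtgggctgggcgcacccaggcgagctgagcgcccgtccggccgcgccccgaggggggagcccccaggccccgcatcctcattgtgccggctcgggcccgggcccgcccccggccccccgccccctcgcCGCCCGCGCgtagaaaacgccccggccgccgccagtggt
FGFR2 had 2 matches, with first bases 37 and 19 bases before the start, FGFR3 had 2, FGF18 had 1 and FGFR4 had 0. The motif was found in 8.25% of 27305 such windows in the genome, and in 38.4% of the 2636 windows with at least 75% G or C. GC content was 78.4% in FGFR2, 86.8% in FGFR3, 79.6% in FGFR4 and 78.8% in FGF18, against a median of 58.0% over all windows. The windows held 42, 40, 24 and 31 CpG sites in that order of genes, against a median of 11. High GC content was not particular to them: the window of FGF2, which did not fall, had 75.2% G or C, 33 CpG sites and no EGR1 match, and that of FGFRL1, which did not fall, had 67.6%, 21 CpG sites and 1 EGR1 match. The window of FGFR1 was not examined. Some windows reach past the gene start of GENCODE 29: FGFRL1 ended 2528, FGF2 123, FGFR4 29 and FGFR2 14 bases beyond it. The FGFR2 match at 19 bases thus spans that start. None of the 4 held ACGTG, a form of the hypoxia response core (18.7% of all windows), or the AP-1 motif TGANTCA (6.60%), on either strand. The GCGTG form of that core was not searched for, and it can be read in the FGFR2, FGFR3 and FGFR4 windows above. The motifs were chosen after the counts were seen, and a match is a string of letters, not a bound site.

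FGFR2 was the member that differed most between the groups. It codes for a receptor tyrosine kinase and lies on the minus strand of chromosome 10 from 121478334 to 121598458 (GRCh38). The 3 CoCl2-tolerant libraries had 17.1, 16.5 and 14.7 CPM, the 3 low-glucose-tolerant libraries 1.09, 1.47 and 0.543 CPM, and the 3 control libraries 98.7, 95.7 and 99.7 CPM. In reads, the CoCl2-tolerant libraries had 417 to 471, the low-glucose-tolerant libraries 15 to 43 and the control libraries 3037 to 3256. No library of one group reached the range of another, and every low-glucose-tolerant library lay under every CoCl2-tolerant one. FGFR2 fell in CoCl2-tolerant cells to 16.1 ± 1.25 CPM, against 98.0 ± 2.06 CPM in control cells (log2 fold change -2.60 ± 0.16 SE, adjusted p = 5.86e-08), a 6.08-fold lower mean. Among 11827 genes with at least 5 CPM in some group, this was rank 34 from the largest fall. The same control libraries served in the fall that chose the members, so the FGFR2 p-value and rank are not independent of that choice. In low-glucose-tolerant cells FGFR2 averaged 1.03 ± 0.47 CPM, 94.7-fold under control, with a log2 difference of -6.55 ± 0.22 SE. That difference, rank 2 among the same genes, belongs to the choice of members and is given without a test, as is the log2 difference of -3.95 ± 0.21 SE between low-glucose-tolerant and CoCl2-tolerant cells. COL1A1 and THY1, which make up the fibroblast marker sum, were ordered like FGFR2 over the 3 groups. PDGFRA was too, at 0.186, 0.0710 and 0.401 CPM in CoCl2-tolerant, low-glucose-tolerant and control cells, but the rest of that list was not. PDGFRB had 1.67 CPM in CoCl2-tolerant, 5.55 CPM in low-glucose-tolerant and 5.80 CPM in control cells, and DCN had 5, 54 and 4 reads in the same order. The median log2 difference of the 6 tested fibroblast markers was -1.58 in CoCl2-tolerant and 0.06 in low-glucose-tolerant cells against control. DCN, among the 6, could enter the fit only through the line where it was high. COL1A2, also among them, ran from 0.136 to 5.21 CPM over the low-glucose-tolerant libraries. The low-glucose median therefore says little on whether the list ran with FGFR2, and the part of these markers in the result was not tested.

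**Figure D1:**
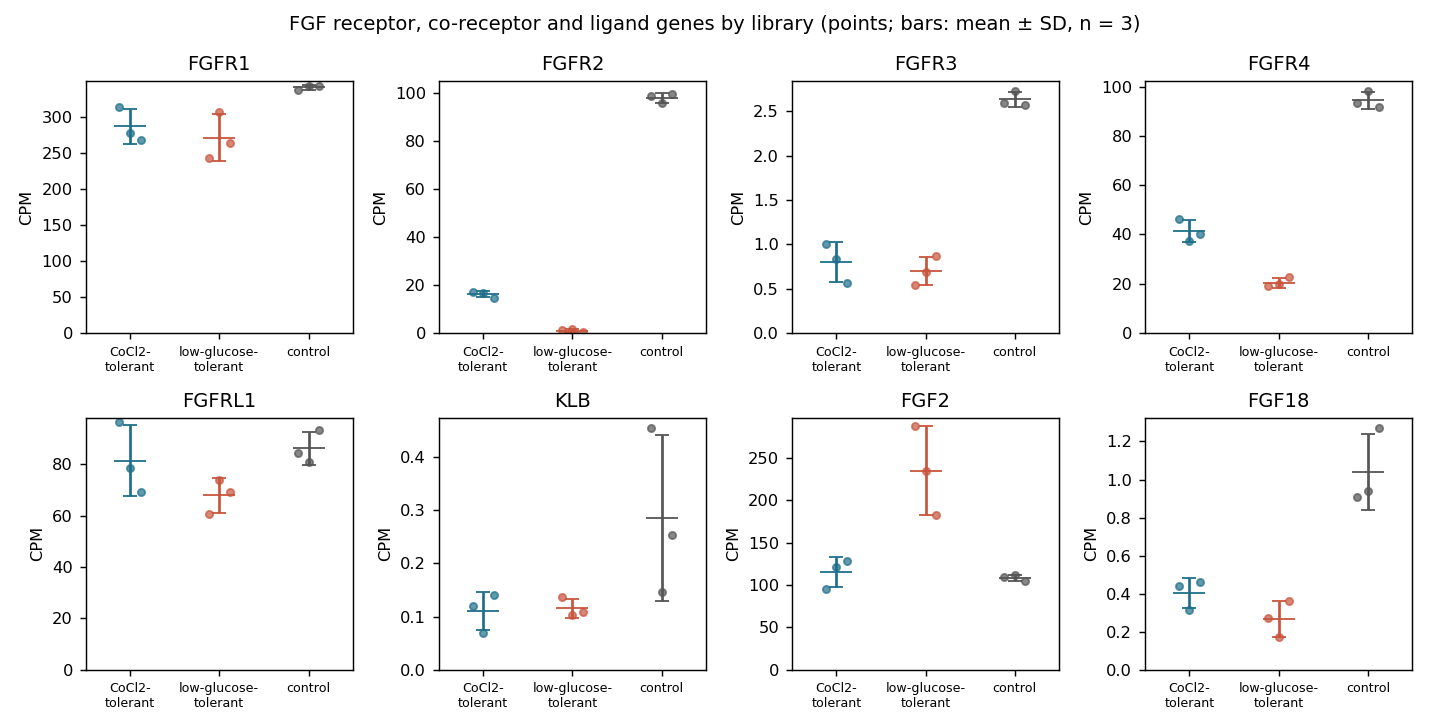
Level of 8 FGF receptor, co-receptor and ligand genes in each library (y axes, CPM, each from 0; points, libraries; bars, mean ± SD, n = 3), with CoCl2-tolerant, low-glucose-tolerant and control cells along the x axes. FGFR2 averaged 16.1, 1.03 and 98.0 CPM in that order, while FGF2 was highest in the low-glucose-tolerant libraries.

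FGFR4, the receptor that pairs with KLB for FGF19, also fell. It lies on the plus strand of chromosome 5 from 177086886 to 177098144. CoCl2-tolerant libraries had 46.2, 37.5 and 40.2 CPM, low-glucose-tolerant libraries 18.9, 19.7 and 22.6 CPM, and control libraries 93.3, 98.3 and 91.8 CPM. The 3 groups did not overlap, and their order was that of FGFR2. FGFR4 fell in CoCl2-tolerant cells to 41.3 ± 4.47 CPM, against 94.5 ± 3.38 CPM in control cells (log2 fold change -1.20 ± 0.11 SE, adjusted p = 2.89e-06). It was lower again in low-glucose-tolerant cells, 20.4 ± 1.95 CPM, than in CoCl2-tolerant cells, with a log2 fold change of -1.02 ± 0.12 SE (adjusted p = 3.46e-06) and a 2.02-fold difference of the means. Against control, the low-glucose-tolerant mean was 4.63-fold lower. Protein-coding genes of chromosome 5 as a whole had a median log2 difference of -0.48 between low-glucose-tolerant and control cells, against 0.08 over all protein-coding genes, and a median of -0.09 between CoCl2-tolerant and control cells. FGF18 lies on the same chromosome, and the part of this shift in either result was not tested.

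FGFR3, a receptor that restrains bone growth and is mutated in dwarfism and bladder cancer, was scarce in every group. CoCl2-tolerant libraries had 1.003, 0.840 and 0.565 CPM, low-glucose-tolerant libraries 0.544, 0.685 and 0.869 CPM, and control libraries 2.60, 2.73 and 2.57 CPM. Both tolerant lines lay under all control libraries and overlapped each other. FGFR3 fell in CoCl2-tolerant cells to 0.803 ± 0.222 CPM, against 2.63 ± 0.0863 CPM in control cells (log2 fold change -1.72 ± 0.24 SE, adjusted p = 9.09e-05). The 2 tolerant lines were not told apart, with a log2 difference of -0.19 ± 0.28 SE for low-glucose-tolerant against CoCl2-tolerant cells (adjusted p = 0.566). Its counts were small, 16 to 25 reads per library in both tolerant lines and 80 to 93 in control.

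FGFR1, the receptor most used by mesenchymal cells, had the highest level per kilobase of the 4 kinase receptors in all 3 groups and differed little between them. CoCl2-tolerant libraries had 314.3, 278.2 and 268.3 CPM, low-glucose-tolerant libraries 242.6, 306.1 and 264.2 CPM, and control libraries 337.2, 342.7 and 343.2 CPM. All tolerant libraries lay under all control libraries, but the CoCl2 difference did not pass the test (log2 fold change -0.25 ± 0.11 SE, adjusted p = 0.0931). FGFR1 passed when low-glucose-tolerant replicate 2 was left out (adjusted p = 0.0263) or when only the 2 groups compared were fitted (adjusted p = 0.0173). Between low-glucose-tolerant and CoCl2-tolerant cells the log2 difference was -0.08 ± 0.11 SE (adjusted p = 0.528). The log2 difference between low-glucose-tolerant and control cells was -0.33 ± 0.11 SE.

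FGFRL1 binds FGFs but has no kinase domain. CoCl2-tolerant libraries had 96.4, 78.7 and 69.1 CPM, low-glucose-tolerant libraries 60.6, 73.8 and 69.2 CPM, and control libraries 84.4, 80.8 and 93.3 CPM. The CoCl2-tolerant libraries spanned the control range, with a log2 fold change of -0.08 ± 0.13 SE (adjusted p = 0.646). Low-glucose-tolerant libraries lay under all control libraries, with a log2 difference of -0.35 ± 0.13 SE. Against CoCl2-tolerant cells the low-glucose-tolerant difference was -0.26 ± 0.13 SE on the log2 scale and missed the threshold (adjusted p = 0.0927), but it passed on leaving out CoCl2-tolerant replicate 3 (adjusted p = 0.0371) or low-glucose-tolerant replicate 2 (adjusted p = 0.0490), as well as with library totals (adjusted p = 0.0216).

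KLB, the co-receptor that FGF19 needs, was close to the detection limit. It had 3, 2 and 4 reads in CoCl2-tolerant libraries, 4, 3 and 3 in low-glucose-tolerant libraries and 14, 5 and 8 in control libraries. The library-size ratio of the summed reads was 0.390 for CoCl2-tolerant against control cells (95% exact interval 0.162 to 0.855) and 0.385 for low-glucose-tolerant against control cells (0.167 to 0.822), intervals that cover counting error only. With 9, 10 and 27 reads over whole groups, no test across libraries was made. Its relative KL, which codes for klotho, the co-receptor for the kidney-acting hormone FGF23, fell in both lines. KL averaged 3.03 ± 0.549 CPM in CoCl2-tolerant cells (adjusted p = 0.000147) and 1.70 ± 0.273 CPM in low-glucose-tolerant cells (adjusted p = 2.50e-07), against 6.70 ± 0.310 CPM in control cells. Among 4 listed genes for klotho and FGF binding proteins 2 were tested, and KL was the only one that changed in either line, unless CoCl2-tolerant replicate 2 was left out, when FGFBP3 also rose there.

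FGF2, basic FGF, a broadly acting ligand of these receptors, was the only member that was higher in a tolerant line without overlap. CoCl2-tolerant libraries had 95.2, 121.2 and 128.5 CPM, low-glucose-tolerant libraries 287.5, 234.2 and 182.6 CPM, and control libraries 108.9, 111.8 and 104.3 CPM. The CoCl2-tolerant libraries lay on both sides of the control range (log2 fold change 0.09 ± 0.15 SE, adjusted p = 0.687), whereas every low-glucose-tolerant library lay above both other groups. Relative to CoCl2-tolerant cells (115.0 ± 17.5 CPM), FGF2 rose in low-glucose-tolerant cells to 234.8 ± 52.5 CPM (log2 fold change 1.03 ± 0.15 SE, adjusted p = 4.23e-05). Against the control mean of 108.3 ± 3.81 CPM it was 2.17-fold higher. On chromosome 4, where FGF2 runs from 122826708 to 122898236 on the plus strand, 11.9% of its exon bases overlap NUDT6, an antisense gene, and the strand setting of the counting was not given in the sources used here. NUDT6 fell in both tolerant lines against control: it averaged 3.37 ± 0.361 CPM in CoCl2-tolerant cells (adjusted p = 0.000252) and 2.58 ± 0.358 CPM in low-glucose-tolerant cells (adjusted p = 2.84e-06), against 6.55 ± 0.193 CPM in control cells. Between low-glucose-tolerant and CoCl2-tolerant cells, where FGF2 rose, NUDT6 did not pass (log2 difference -0.38 ± 0.16 SE, adjusted p = 0.0534).

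FGF18, a ligand of bone, lung and gut mesenchyme, was rare. CoCl2-tolerant libraries had 11, 9 and 13 reads, low-glucose-tolerant libraries 8, 5 and 10, and control libraries 28, 32 and 40. FGF18 fell in CoCl2-tolerant cells to 0.405 ± 0.0786 CPM, against 1.04 ± 0.200 CPM in control cells (log2 fold change -1.35 ± 0.32 SE, adjusted p = 0.00445). Low-glucose-tolerant cells had 0.268 ± 0.0953 CPM, overlapping the CoCl2-tolerant libraries (log2 difference -0.59 ± 0.40 SE, adjusted p = 0.206). FGF9, which signals between epithelium and mesenchyme, had 1 read in low-glucose-tolerant replicate 2 and none in the other 8 libraries.

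Over the 7 members tested, 4 fell and 0 rose in CoCl2-tolerant cells relative to control, where 36.1% of all tested genes changed and 18.2% fell. Their median log2 fold change was -1.20, against 0.01 over all tested genes. Of the 9 members with counts, 6 were lower without overlap between libraries, where 57.2% of tested genes did not overlap and 28.8% were lower without overlap. KLB is among the 6 with 9 reads against 27. Neither KLB nor FGF9 was tested, so the members and the background are not quite like sets. Between low-glucose-tolerant and CoCl2-tolerant cells 63.9% of all genes changed, and of the 6 members with a test FGF2 rose, FGFR4 fell and 4 did not pass. These 2 and FGFR2 were also the 3 whose libraries did not overlap there, against 63.1% of all tested genes. In the low-glucose-tolerant line against control, 7 of the 9 members with counts, KLB again among them, were lower and 1 was higher without overlap between libraries. There 73.3% of all tested genes did not overlap, with 36.4% higher and 36.9% lower, and 69.2% changed, and nothing is read from the members' count because that comparison chose them. Both tolerant lines were set against the same control libraries, so the 2 sets of differences are not independent. FGFR2, among the 4 that fell in CoCl2-tolerant cells, was chosen by its fall from those control libraries.

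**Figure D2:**
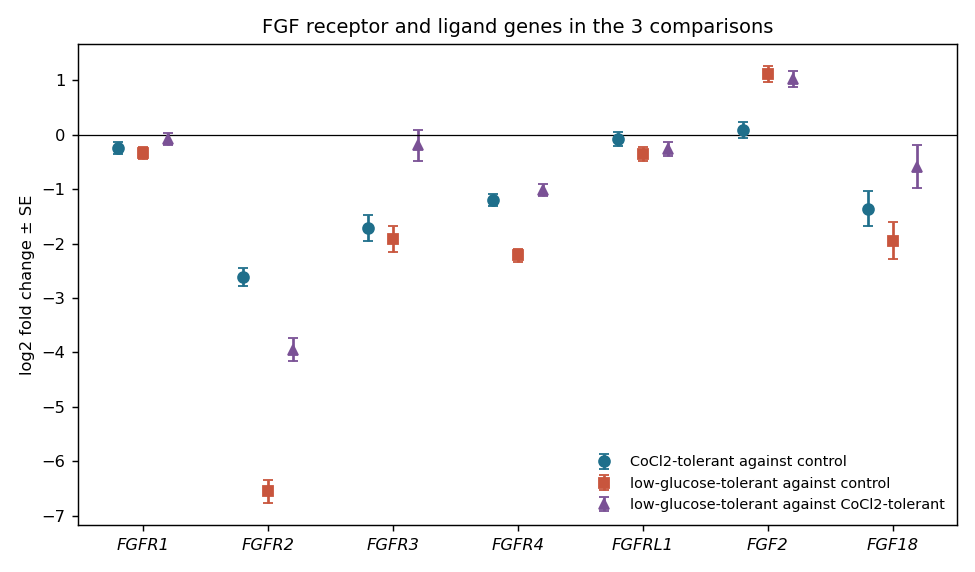
Log2 fold changes ± SE (y axis) of the 7 tested members (x axis) in the 3 comparisons, with values above 0 higher in the group named first. FGFR2 stood at -2.60 in CoCl2-tolerant and -6.55 in low-glucose-tolerant cells against control; the differences of low-glucose-tolerant cells against control, and of FGFR2 between the tolerant lines, chose the members and carry no test.

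Per kilobase of exon, the order of the members differed between the groups. The length used joins all annotated exons of a gene (13842 bases for FGFR1, 6775 for FGF2). It can exceed the length of the transcripts present, so the order of genes within a group is approximate. In CoCl2-tolerant cells FGFR1 (20.7 CPM per kb), FGFRL1 (19.6) and FGF2 (17.0) led, followed by FGFR4 (8.55) and FGFR2 (2.13), and the library ranges of FGFR1 and FGFRL1, and of FGFRL1 and FGF2, overlapped. In low-glucose-tolerant cells FGF2 led with 34.7 CPM per kb, before FGFR1 (19.6), FGFRL1 (16.4) and FGFR4 (4.23), with overlapping ranges for FGFR1 and FGFRL1. There FGFR3 (0.144), FGFR2 (0.137) and FGF18 (0.135 CPM per kb) overlapped one another. In control cells the order was FGFR1 (24.6 CPM per kb), FGFRL1 (20.8), FGFR4 (19.6), FGF2 (16.0) and FGFR2 (12.9), with overlapping ranges only for FGFRL1 and FGFR4 among these 5. FGFR3 and FGF18 overlapped in all 3 groups, and KLB was lowest of the 8 members above in each.

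The summed level of the 4 kinase receptors was 31.6 ± 2.75 CPM per kb in CoCl2-tolerant cells and 24.1 ± 2.41 CPM per kb in low-glucose-tolerant cells, against 57.7 ± 0.554 CPM per kb in control cells. FGFR1 made up 65.7% ± 0.767 of that sum in CoCl2-tolerant cells, 81.2% ± 1.98 in low-glucose-tolerant cells and 42.7% ± 0.358 in control cells. The FGFR2 share was 6.75% ± 0.396, 0.564% ± 0.233 and 22.4% ± 0.667 in the same order. FGFR4 held 27.1% ± 1.22, 17.7% ± 2.09 and 33.9% ± 0.925. FGFR3 stayed under 1% in every library. Receptor mRNA differed in amount and in composition, with FGFR1 as the larger part of what was left. These shares include FGFR2 and so are given without a test, and they are approximate because they rest on the same joined exon lengths.

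**Figure D3:**
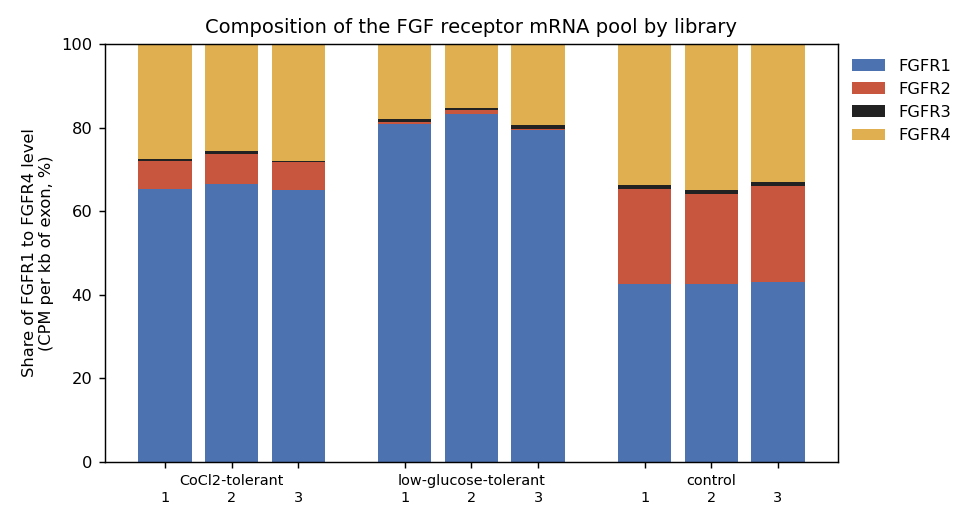
Share of each kinase receptor (stacked colours) in the summed FGFR1 to FGFR4 level, in % of CPM per kb of exon (y axis), for each library (x axis, replicates 1 to 3 of CoCl2-tolerant, low-glucose-tolerant and control cells). The FGFR1 share averaged 65.7%, 81.2% and 42.7% in that order.

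The genes around FGFR2 were examined to see whether the neighbourhood moved with it. Of 10 protein-coding genes within 1 Mb of FGFR2, 7 were tested. In CoCl2-tolerant cells 1 rose and 0 fell: HTRA1, a secreted serine protease, had a log2 fold change of 0.71 (adjusted p = 0.000185), and the other 6 lay between -0.18 and 0.08. In low-glucose-tolerant cells 4 rose, led by TACC2, a centrosomal protein (log2 fold change 1.19, adjusted p = 8.64e-07), and 2 fell, PLEKHA1 (-0.67, adjusted p = 0.000195) and WDR11 (-0.32, adjusted p = 0.00782). The background of genes changed was 36.1% in the first comparison and 69.2% in the second.

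**Figure D4:**
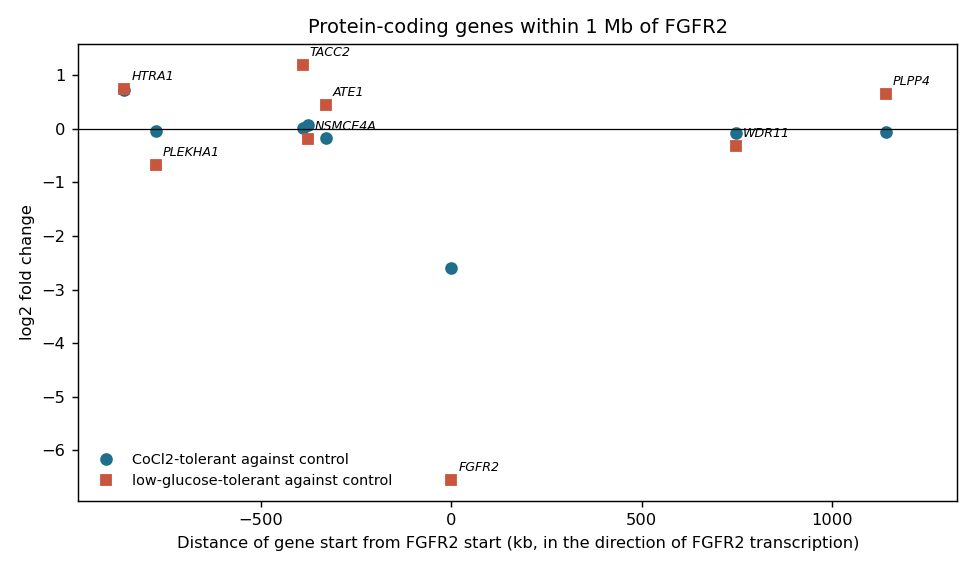
Log2 fold change against control (y axis) of FGFR2 and the 7 tested protein-coding genes lying within 1 Mb of it, by distance of the gene start in kb (x axis, positive in the direction of FGFR2 transcription; circles CoCl2-tolerant, squares low-glucose-tolerant). The neighbours lay between -0.67 and 1.19, while FGFR2 stood at -2.60 and -6.55.

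Of the 14 other secreted FGF genes listed, 10 had counts and 5 were tested, all with group means under 8 CPM. FGF5, a ligand that ends the hair growth phase, rose in low-glucose-tolerant cells to 7.89 ± 1.006 CPM, against 2.89 ± 0.338 CPM in control cells (adjusted p = 2.09e-05). FGF22 fell there (log2 fold change -2.58, adjusted p = 4.41e-06). FGF17 rose in CoCl2-tolerant cells (1.09, adjusted p = 0.00338) and fell in low-glucose-tolerant cells (-1.008, adjusted p = 0.00717), and no other ligand of this list passed in either comparison. FGF1 is the exception with other fits, since leaving out any single low-glucose-tolerant library brought the CoCl2 count to 2. Among 4 intracellular FGFs, which do not act through these receptors, FGF12 rose in low-glucose-tolerant cells (1.61, adjusted p = 2.95e-06), and FGF11 rose in CoCl2-tolerant cells (1.22) and fell in low-glucose-tolerant cells (-2.04), with 75.02% of its exon bases shared with other annotated genes.

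Heparan sulfate, the cofactor of FGF binding, depends on enzymes of which 16 of 23 listed were tested. In CoCl2-tolerant cells 9 fell and 2 rose, where 18.2% of all tested genes fell and 17.9% rose. The count of falls dropped to 5 without control replicate 2, and the count of rises dropped to 0 without any 1 of the control libraries or without CoCl2-tolerant replicate 1. In low-glucose-tolerant cells 5 fell (NDST1, GLCE, HS6ST1, HS6ST2 and HS3ST5) and EXT2, named after its value was seen, rose, where 34.6% of all tested genes fell and 34.6% rose, so this share of falls was near the background. The count of rises became 2 without low-glucose-tolerant replicate 1. The list's median log2 fold changes were -0.44 in CoCl2-tolerant cells and -0.19 in low-glucose-tolerant cells, against 0.01 and -0.01 over all genes. NDST1, which starts sulfation of the chain, averaged 823.1 ± 81.2 CPM in CoCl2-tolerant cells (adjusted p = 0.00292) and 415.0 ± 116.1 CPM in low-glucose-tolerant cells (adjusted p = 3.57e-07), against 1351 ± 30.8 CPM in control cells. GLCE, the epimerase of the chain, fell by 1.002 (adjusted p = 3.78e-05) and by 1.98 (adjusted p = 1.03e-08) on the log2 scale in the same lines. HS6ST1, a 6-O-sulfotransferase, fell by 0.99 (adjusted p = 8.58e-05) and by 1.45 (adjusted p = 4.71e-07).

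Downstream of the receptors, 14 adaptor genes were all tested. FRS2 had 43.5 CPM in CoCl2-tolerant, 41.4 CPM in low-glucose-tolerant and 52.4 CPM in control cells and did not pass (adjusted p = 0.206 and 0.0710 against control), nor did GRB2. In low-glucose-tolerant cells SHC1, an adaptor of many tyrosine kinases, rose to 506.4 ± 74.4 CPM, against 172.6 ± 5.29 CPM in control cells (adjusted p = 3.88e-08), as did GAB2, SH2B1 and FRS3, the last named after its value was seen, where 34.6% of all genes rose and 34.6% fell. PLCG1, a phospholipase bound by activated receptors, fell there (-0.91, adjusted p = 1.08e-05), alone unless low-glucose-tolerant replicate 2 was left out, when 5 fell. In CoCl2-tolerant cells 0 rose and 3 fell, near the 18.2% of all genes that fell: CBL, a ubiquitin ligase (-1.04, adjusted p = 0.00380), PLCG1 (-0.39, adjusted p = 0.0209) and GAB1 (-0.44, adjusted p = 0.0472). Only CBL kept its call without control replicate 1, control replicate 3 or CoCl2-tolerant replicate 3.

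ERK feedback genes and ETS factors, which ERK signalling induces in many cells, mostly rose in low-glucose-tolerant cells, while in CoCl2-tolerant cells fewer passed the test. Of 17 such genes, all tested, 7 rose and 2 fell in CoCl2-tolerant cells, where 17.9% of all genes rose, and 14 rose and 2 fell in low-glucose-tolerant cells, where 34.6% rose. DUSP4, 1 of those 14, had 56 reads in low-glucose-tolerant and 9 in control libraries, and it could enter the fit only through the line where it was high. Their median log2 fold changes were 0.45 and 2.14. DUSP6, the ERK phosphatase, rose to 10.6 ± 0.451 CPM in CoCl2-tolerant cells (adjusted p = 8.88e-06) and to 33.9 ± 4.34 CPM in low-glucose-tolerant cells (adjusted p = 3.09e-10), against 4.47 ± 0.342 CPM in control cells; 40.5% of its exon bases lie opposite an antisense gene. ETV5, an ETS factor, averaged 22.0, 169.7 and 12.3 CPM in the 3 groups in that order (adjusted p = 4.50e-05 and 7.81e-12 against control). EGR1, an immediate early target of ERK, fell to 14.9 ± 1.36 CPM (adjusted p = 4.62e-07) and 1.93 ± 0.440 CPM (adjusted p = 2.78e-11), against 49.2 ± 3.45 CPM in control cells. The second gene that fell was IL17RD in CoCl2-tolerant and SPRY3 in low-glucose-tolerant cells, both named after their values were seen. The CoCl2 count of falls was 1 without control replicate 1 or 2 or without CoCl2-tolerant replicate 2, and 4 without low-glucose-tolerant replicate 2. The low-glucose count of falls was 1 without control replicate 1 or low-glucose-tolerant replicate 3.

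**Figure D5:**
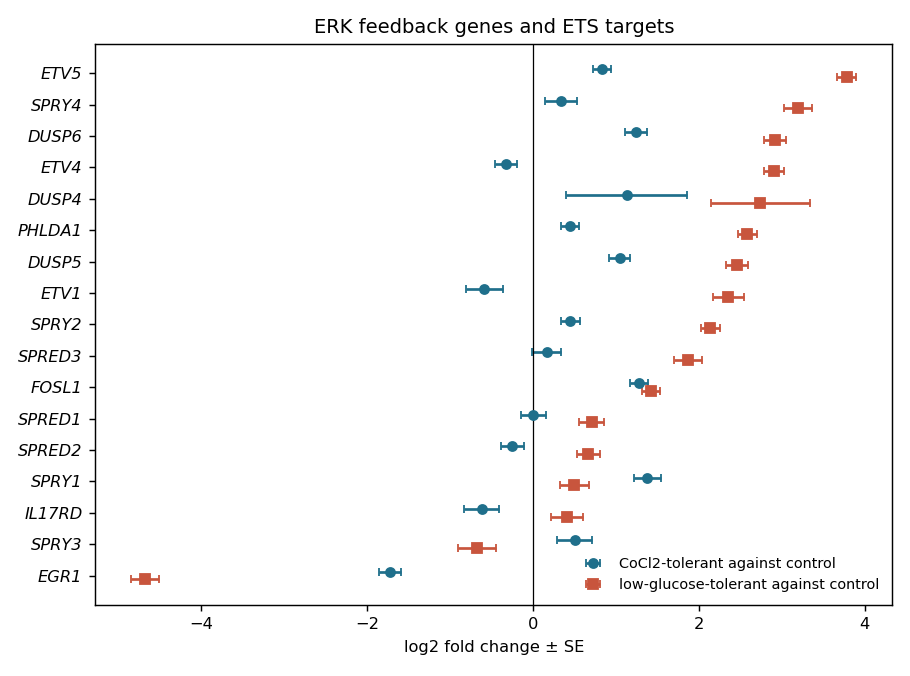
Log2 fold change ± SE against control (x axis) of 17 ERK feedback genes and ETS targets (y axis), for CoCl2-tolerant (circles) and low-glucose-tolerant cells (squares). ETV5 had the highest low-glucose value, 3.78, and EGR1 lay lowest in both lines, at -1.72 and -4.67.

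Genes whose levels ran most like those of the members over the 9 libraries were found, by Pearson's r of log2 CPM, among 11387 tested genes that have a symbol, are not pseudogenes and reach 5 CPM in some group. The 9 libraries form 3 groups that hold most of the variation, so high r values are a description only. For FGFR2 they were TNFRSF19 (r = 0.998), SPTLC2 (0.997) and NFKBIZ (0.996). TNFRSF19, a WNT target in stem cells, averaged 116.5 CPM in CoCl2-tolerant, 52.1 CPM in low-glucose-tolerant and 200.9 CPM in control cells, a far smaller range than that of FGFR2. For FGFR4 they were ACSS2 (0.998), TAGLN (0.997) and NKAIN4 (0.997). For FGF2 they were CMTR2 (0.997), ZNRF2 (0.996) and SLC35F5 (0.994). FGFR1 ran closest to SNRNP200 (0.9945), FGFR3 to SLC25A35 (0.995), FGFRL1 to NEURL4 (0.966) and FGF18 to CKB (0.979).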

How the data were processed

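Each library's table held read counts per Ensembl gene, which the submitters deposited as whole numbers. The authors counted with featureCounts on GRCh38 and used DESeq2, per the submitters' processing notes. No aligner, annotation release or strandedness is given in the sources used here. Libraries were made from fragmented messenger RNA, per the labels' protocols. Symbols were found for 35938 of 36018 identifiers in a name table and for 76 more in GENCODE 29, which also gave positions for 34888 genes and exon lengths.

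Counts were fitted with edgeR 4.0.16 in R 4.3.3 (TMM scaling, filterByExpr, 1 mean per group over all 9 libraries, quasi-likelihood F test, Benjamini-Hochberg adjustment over 17902 genes). On simulated counts for CoCl2-tolerant against control cells, with 17902 genes, the fit recovered 59.7% of 1.5-fold, 97% of 2-fold and 100% of 4-fold changes, with 5.52% false calls. The simulation changed only 67, 67 and 66 genes in that order, all of higher count, and gave every gene the same spread (coefficient of variation 12.6%). These rates therefore do not cover genes with few reads, such as FGFR3 and FGF18, or data with as many changes as these. No library was a copy of another: chi-square per degree of freedom between replicates was at least 2.31. The first principal component (69.2% of variance) set the low-glucose-tolerant line apart, and low-glucose-tolerant replicate 2 stood off its replicates on the second. Alternatives were DESeq2 1.42.0, its size factors, library totals, filters, subsets of libraries and a replicate block.

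The members and gene lists (other FGF ligands, intracellular FGFs, klotho and FGF binding proteins, heparan sulfate synthesis, receptor adaptors, ERK feedback and ETS targets, FGFR2 exon choice factors, FXR and bile acid genes, cell type markers) were chosen with earlier results of these data known. Member values for low-glucose-tolerant against control cells, and FGFR2 between the tolerant lines, are given without tests for that reason. Genes named from a list were those with up to 4 largest changes per comparison past the threshold at 1 CPM or more, and any gene of a list of 8 or fewer. EXT2, FRS3, IL17RD, SPRY3, CDH1, EPCAM, KRT19, GPA33 and the fibroblast markers were named outside this rule, after their values were seen. Likeness was ranked over tested genes with a symbol and at least 5 CPM in a group, without pseudogenes. Promoter motifs were searched with Python 3.11.15.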

Additional observations from a re-analysis of the deposited data

How the results depend on the processing

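Every alternative kept the direction of each called member, and of 216 recomputed member values that carry a test 210 kept their side of the threshold, with 6 that newly passed (FGFR1 in CoCl2-tolerant cells and FGFRL1 between the tolerant lines). The 4 members that fell in CoCl2-tolerant cells became 2 when genes needed at least 5 CPM in 3 libraries, because FGFR3 and FGF18 were then not tested, and 5 when only the groups compared were fitted. Leaving out 1 library at a time gave 4 to 5 members, and 4463 to 7965 genes changed in CoCl2-tolerant cells, 11373 to 12903 in low-glucose-tolerant cells and 10476 to 11836 between the lines. The 5 CPM filter gave 4734, 8466 and 7740 genes in that order. Of 1053 values recomputed for the 63 results of genes named by rule, 31 lost their call, all in CoCl2-tolerant against control cells, in HS3ST1, HS3ST5, GAB1, PLCG1, PTBP1 and RBFOX2, and none changed direction; the cause was not tested. Library totals in place of scaling moved the median of all genes in low-glucose-tolerant cells to -0.11 on the log2 scale. Leaving out mitochondrially encoded genes, a choice made after seeing the data, left 4 members.

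Replicate numbers were not taken as pairs, since same-numbered libraries had residual correlations of -0.595 to 0.324. With the replicate block 4 members fell, and 6091, 12118 and 11135 genes changed in the 3 comparisons. Reads without molecular identifiers are not independent molecules, and KLB, FGF9 and FGF18 are limited by their few reads.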

Other observations

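FGFR2 exists in an epithelial and a mesenchymal form that differ by 1 alternative exon, which gene counts cannot tell apart. Of 7 listed factors that act on this exon, all tested, 3 rose and 2 fell in low-glucose-tolerant cells, near the background of 34.6% of all tested genes in each direction. ESRP2, an epithelial splicing factor, rose to 1.76 CPM, against 0.718 CPM in control cells (edgeR, adjusted p = 0.000711), and ESRP1, its relative and 1 of the 3, had 84 reads in low-glucose-tolerant libraries, against 4 in control libraries. ESRP1 could enter the fit only through the line where it was high, so its p-value is not given. HNRNPA1 rose as well (log2 fold change 0.40, adjusted p = 0.00753). TIA1, an RNA-binding protein that favours the epithelial exon, fell to 23.2 CPM, against 72.3 CPM in control cells (adjusted p = 2.40e-07), and HNRNPM fell by 0.47 on the log2 scale (adjusted p = 0.00157). In CoCl2-tolerant cells, where 17.9% of all genes rose and 18.2% fell, 0 rose and 2 fell, PTBP1 (-0.29, adjusted p = 0.0385) and RBFOX2 (-0.39, adjusted p = 0.0278). Without any 1 control library, or without CoCl2-tolerant replicate 2 or 3, neither passed, and without CoCl2-tolerant replicate 1 PTBP1 did not (adjusted p = 0.0538).

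Of 8 listed genes of the bile acid receptor pathway that controls FGF19 in the ileum, 7 had counts and 3 were tested. NR1H4, which codes for the receptor FXR, fell in low-glucose-tolerant cells to 1.5 CPM, against 3.43 CPM in control cells (edgeR, adjusted p = 0.000359). It had 4.88 CPM in CoCl2-tolerant cells (adjusted p = 0.0696). FABP6, the ileal bile acid binding protein, fell in CoCl2-tolerant cells to 0.582 CPM (adjusted p = 0.00134) and rose in low-glucose-tolerant cells to 3.21 CPM (adjusted p = 0.00270), against 1.65 CPM in control cells. Without low-glucose-tolerant replicate 1 or 2, NR1H4 rose in CoCl2-tolerant cells, 1 gene of the list against 0 with all libraries.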
